A study of Mus musculus with 9 samples.

Results

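Rag1, Rag2, Dntt, Ptcra, Cd8a, Cd8b1, Ccr9, Arpp21 and Themis, genes of the CD4+CD8+ double-positive stage of the thymocyte, were followed through 9 bulk RNA-seq libraries of sorted OT-II thymocytes. They were chosen by gene symbol, as 9 of the 24594 genes in the table, and all 9 were found in it. The measure is RPKM, exonic reads of a gene relative to its length and to the depth of the library. The cells carried the OT-II transgene, a T cell receptor specific for an ovalbumin peptide, and were sorted as CD4+CD8-CD69+ Vα2+Vβ5+ thymocytes, so they had left the double-positive stage by surface CD8. The hosts were lethally irradiated mice of BoyJ background, given a mix of marrow of OT-II donors, of OT-II donors lacking Nr4a1 and Nr4a3 and of non-transgenic donors, and the thymus was taken after 4.7 weeks. The OT-II control donor was Nr4a1+/+ Nr4a3+/+ on an F1 of the OT-II line B6.Cg-Tg(TcraTcrb)425Cbn/J and BoyJ. The double knockout (DKO) donor was Nr4a1-/- Nr4a3-/- on C57BL/6, so genotype and donor background cannot be told apart. Hosts were wild type (WT), or carried RIPmOVA, a membrane form of ovalbumin under the rat insulin promoter, which medullary thymic epithelial cells present as a self-antigen. The paper describes its RIPmOVA and WT mice that carry both CD45 alleles as an F1 of RIPmOVA and BoyJ parents. There were n = 2 libraries of OT-II cells and n = 3 of DKO-labelled cells from WT hosts, and n = 2 of each from RIPmOVA hosts. The libraries came from 5 chimeras, and 4 of these gave a library of each genotype.

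At the double-positive stage, thymocytes express both coreceptors, have stopped cycling and rearrange the T cell receptor alpha locus. RAG1 and RAG2 form the recombinase that cuts at the recombination signals, and terminal deoxynucleotidyl transferase, encoded by Dntt, adds untemplated bases to the coding ends. Cells selected on MHC class II then lose CD8, keep CD4 and move to the medulla. In an OT-II cell the receptor chains are supplied by transgenes, which does not by itself switch the recombination genes off.

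Recovered depth was 15.5 to 25.1 M reads per library. The defining T cell genes of the sort were high, with Cd3e at 234 to 303 and Cd4 at 189 to 241 RPKM. Gene-level RPKM of Nr4a1 was 60.7 to 86.1 in OT-II and 60.1 to 87.7 in DKO-labelled libraries from WT hosts, and 229 to 260 and 235 to 282 in those from RIPmOVA hosts. Nr4a3, the other targeted gene, was 0.181 to 0.189 and 0.188 to 0.665 RPKM in WT hosts, and 3.72 to 5.66 in OT-II against 14.1 to 16.5 in DKO-labelled libraries from RIPmOVA hosts, so it was higher in the cells labelled as lacking it. Values summed over all exons do not show which part of a transcript is present, so they do not check the genotype labels, and each direction between genotypes rests on the labels. Replicate 1 of the OT-II cells from RIPmOVA hosts stood apart in the genes studied here, and results that rest on it are given with and without it. Reads on 1481 sensory receptor genes, which thymocytes are not known to use, summed to 433 to 639 RPKM in 4 libraries (replicate 1 of OT-II and replicate 2 of DKO-labelled cells from WT hosts, and both of DKO-labelled cells from RIPmOVA hosts) and to 73.8 to 201 RPKM in the other 5.

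Promoter windows were read from RefSeq for GRCm38.p6, the 250 bases before each annotated start, for 8 of the 9 genes; Cd8b1 had no entry. The windows of Rag1, Rag2, Ptcra and Cd8a are shown because these genes have a single annotated window and were highest together in the same library. Searched for on both strands were 4 motifs. The NBRE AAAGGTCA is the monomer site of NR4A receptors, CAGNTG is an E box bound by E proteins, TGTGGT is a RUNX core, and AGGTCA is the half-site of nuclear receptors, which lies within the NBRE. Capitals mark the matches.
Rag1, chr2:101649533-101649782, minus strand: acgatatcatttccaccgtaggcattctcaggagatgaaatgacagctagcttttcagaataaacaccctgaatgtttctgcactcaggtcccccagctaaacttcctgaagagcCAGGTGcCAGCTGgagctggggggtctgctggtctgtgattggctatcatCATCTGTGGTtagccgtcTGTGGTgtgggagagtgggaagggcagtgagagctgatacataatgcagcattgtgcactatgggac
Rag2, chr2:101624462-101624711, plus strand: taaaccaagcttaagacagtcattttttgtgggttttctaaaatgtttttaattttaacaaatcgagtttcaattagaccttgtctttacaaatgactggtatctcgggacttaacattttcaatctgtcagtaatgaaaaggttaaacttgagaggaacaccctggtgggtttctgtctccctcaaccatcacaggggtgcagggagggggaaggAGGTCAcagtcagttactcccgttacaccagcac
Ptcra, chr17:46763713-46763962, minus strand: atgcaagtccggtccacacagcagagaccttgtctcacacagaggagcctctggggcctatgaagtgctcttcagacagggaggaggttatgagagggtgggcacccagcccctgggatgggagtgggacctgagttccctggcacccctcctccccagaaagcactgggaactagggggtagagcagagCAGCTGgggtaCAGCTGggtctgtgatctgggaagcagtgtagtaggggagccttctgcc
Cd8a, chr6:71373177-71373426, plus strand: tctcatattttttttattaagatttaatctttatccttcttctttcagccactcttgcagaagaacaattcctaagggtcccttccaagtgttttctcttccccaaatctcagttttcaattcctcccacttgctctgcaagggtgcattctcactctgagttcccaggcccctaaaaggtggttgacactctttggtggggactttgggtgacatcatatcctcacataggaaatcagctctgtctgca

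An NBRE was found in none of the 17 windows of the 8 genes, and in 1.34% of 32851 windows of all genes. The Rag1 window held E boxes at 3 positions and RUNX cores at 2, and the last E box shares bases with the first RUNX core. The Ptcra window held E boxes at 2 positions, where 44.8% of all windows hold at least 1. The Rag2 window held 1 nuclear receptor half-site, which 14.0% of all windows hold, as 14.0% hold a RUNX core. The windows of Cd8a and Dntt held none of the 4 motifs. A match describes letters only.

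Across the 9 libraries the genes spanned a wide range of levels. By median RPKM per length the order was Cd8b1 (80.3), Ccr9 (55.8), Dntt (24.1), Themis (19.97), Cd8a (2.83), Rag1 (0.945), Arpp21 (0.512), Ptcra (0.160) and Rag2 (0.0650). The first 4 were among the more abundant transcripts of these CD8- cells, with medians at percentiles of 90.5 (Themis) to 98.6 (Cd8b1) among all genes in the table. Ccr9 was above Dntt, and Themis above Cd8a, without overlap of their ranges over libraries. The ranges of the other neighbours overlapped, although each was above the next in 8 or 9 of 9 libraries, except Ptcra, which was above Rag2 in 6. The order between genes depends on the length used. The length in the table matched the sum of distinct exons within 1% for 79.5% of 24062 genes, and for 6.00% it exceeded the span of the gene, so exons shared by transcript variants were counted repeatedly. On merged exon length Ccr9 (97.2) was above Cd8b1 (80.3) and Cd8a rose to 5.98. Comparisons of a gene with itself between libraries are not affected.

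**Figure D1:**
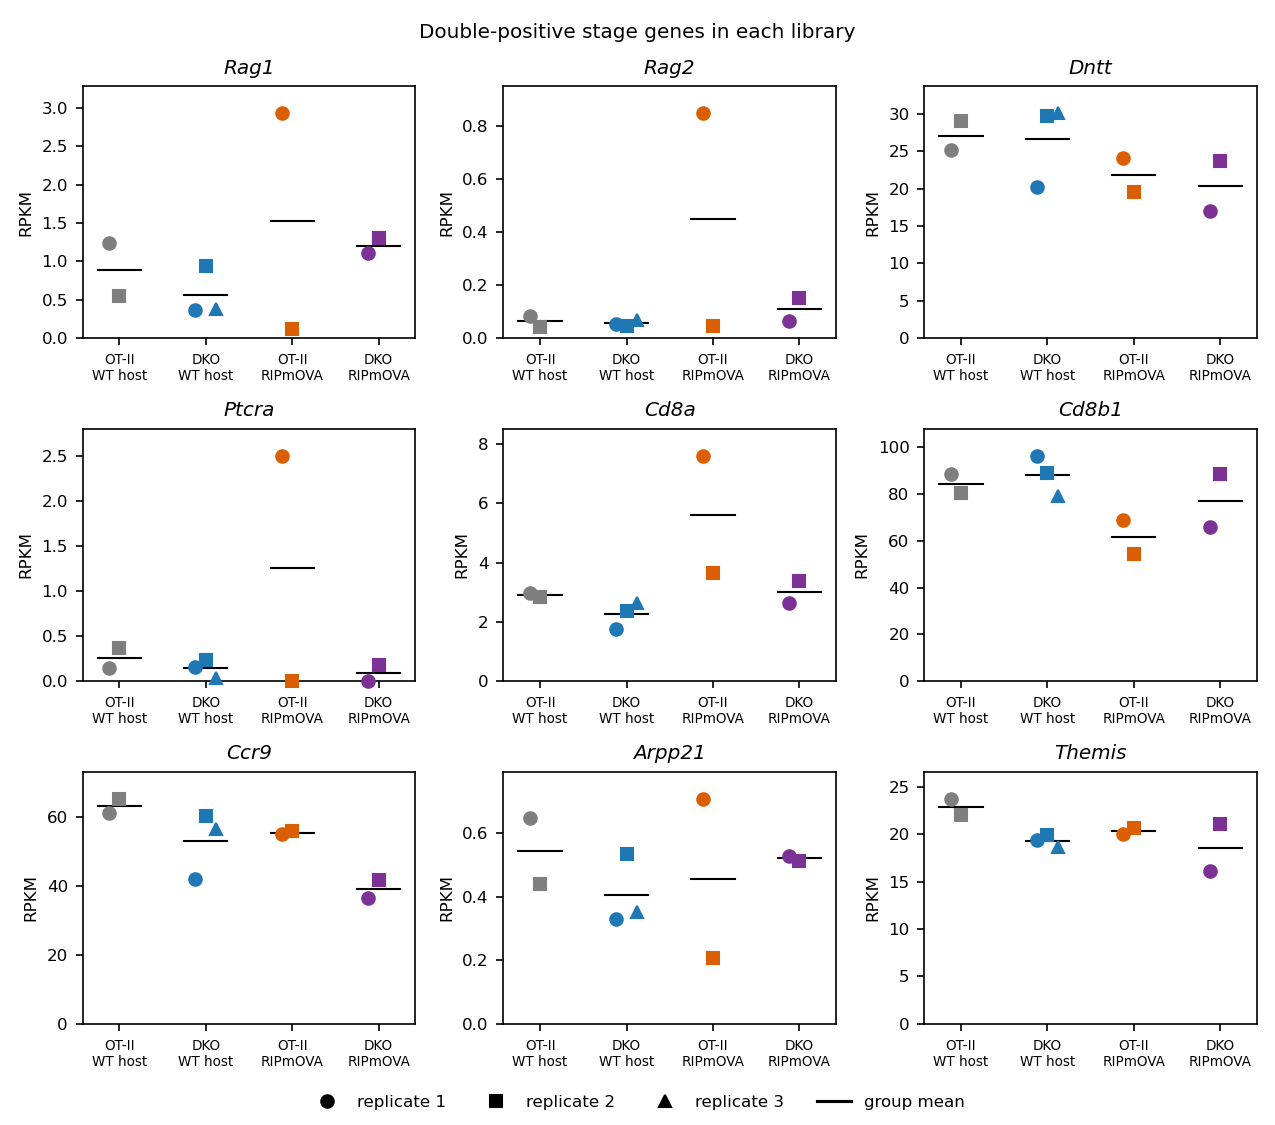
RPKM of each of the 9 genes (y axes, each from 0) in every library, by group (x axis), with symbols for replicates and a line at the group mean. Replicate 1 of OT-II cells from RIPmOVA hosts is the highest of 9 libraries for Rag1, Rag2, Ptcra, Cd8a and Arpp21, while Ccr9 lies lowest in the DKO-labelled cells from RIPmOVA hosts, at 36.6 and 41.8.

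For the tests, genes with at least 1 RPKM in at least 2 libraries were kept (11569), and log2(RPKM + 0.5) was compared with limma over all 9 libraries. A call needed a Benjamini-Hochberg adjusted p no greater than 0.05 and a log2 fold change no smaller than 1 in size. Rag1, Dntt, Cd8a, Cd8b1, Ccr9 and Themis passed the filter, and Rag2, Ptcra and Arpp21 did not. Bulk values cannot tell fewer cells with a transcript from less transcript per cell.

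None of the 6 genes was called in any of the 5 comparisons by limma. The first asked whether the self-antigen moved these genes in OT-II cells. Between RIPmOVA and WT hosts in OT-II cells, 1.05% of all genes tested were called as higher and 0.173% as lower, and 14.3% had an unadjusted p under 0.05, as did 2 of the 6 genes here, Cd8a and Cd8b1. The groups did not overlap for 5 of the 6, beside 41.6% of all genes tested. The second asked the same of DKO-labelled cells. There 1.52% of genes were called higher and 0.156% lower in RIPmOVA hosts, 17.6% had an unadjusted p under 0.05, as did Ccr9, and 2 of 6 did not overlap, beside 40.0% of all. The third asked what the genotype changes in the presence of the self-antigen. Between DKO-labelled and OT-II cells from RIPmOVA hosts, 0.510% of genes were called higher and 0.562% lower, 21.4% had an unadjusted p under 0.05, as did Cd8a and Ccr9, and 2 of 6 did not overlap, beside 59.0% of all. The fourth asked the same in WT hosts. There 0.00864% were called higher and 0.0519% lower (7 genes in all, and 2 with the chimera as a fixed replicate block), 7.89% had an unadjusted p under 0.05 and 0 of the 6 did, and 3 of 6 did not overlap, beside 20.8% of all. The last, the interaction, asked whether the host effect differed between genotypes. It called 0% higher and 0.0173% lower, and 9.32% of all genes and 0 of the 6 had an unadjusted p under 0.05. Voom on the recovered reads, also a limma fit, called 0 of the 6 in each comparison, with 2, 1, 2, 0 and 0 of the 6 at an unadjusted p under 0.05. The host effect in OT-II and the genotype effect in RIPmOVA hosts share the OT-II libraries from RIPmOVA hosts, and the other comparisons share groups likewise.

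The precision differed between genes. For Dntt, Cd8b1, Ccr9 and Themis, all 20 intervals (95%, not adjusted for the number of genes) lay between -0.85 and 0.76 on the log2 scale, so a 2-fold difference was outside each of them. For Cd8a the intervals reached from -1.39 to 1.43 and for Rag1 from -1.79 to 2.70, so a 2-fold difference lay inside some of their intervals.

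**Figure D2:**
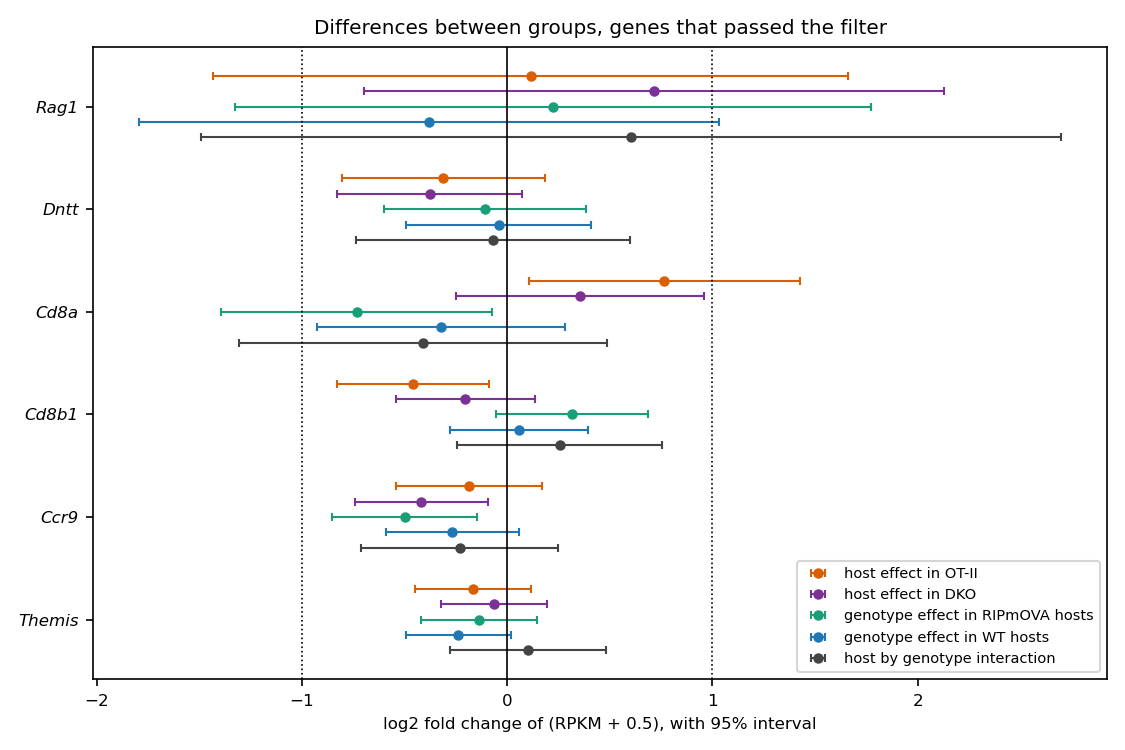
Log2 fold changes of RPKM + 0.5 (x axis) with 95% intervals for the 6 genes that passed the filter (y axis), in the 5 comparisons (colours). Dotted lines mark the limit of 1 in each direction. The intervals of Dntt, Cd8b1, Ccr9 and Themis stay between -0.85 and 0.76, and those of Rag1 reach from -1.79 to 2.70.

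Rag1 (Entrez 19373, chromosome 2, 101638282 to 101649501, GRCm38, minus strand), which encodes the cutting subunit of the recombinase, was low and scattered. In OT-II cells from WT hosts it was 1.24 and 0.544 RPKM, and in DKO-labelled cells from WT hosts 0.366, 0.945 and 0.387. In RIPmOVA hosts it was 2.94 and 0.119 RPKM in OT-II cells and 1.11 and 1.30 in DKO-labelled cells. The highest and the lowest library thus belonged to the same group, and no comparison had a smaller adjusted p than 0.56. The log2 fold change between hosts in OT-II cells was 0.11 (SE 0.69, limma adjusted p = 0.96) with all libraries and -1.12 (SE 0.51, limma adjusted p = 0.57) without replicate 1 of the OT-II cells from RIPmOVA hosts, and over all alternatives the adjusted p was 0.31 to 1. For the genotypes within RIPmOVA hosts it was 0.22 (SE 0.69, limma adjusted p = 0.88), and 1.46 (SE 0.51, limma adjusted p = 0.26) without that library, with a range of the adjusted p of 0.26 to 0.96 over alternatives.

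Apart from that library, Rag1 divided the libraries as the reads on sensory receptor genes did. It was 0.945 to 1.30 RPKM in the 4 libraries with most of these reads and 0.119 to 0.544 RPKM in the 4 others. Arpp21 (0.512 to 0.646 against 0.206 to 0.438 RPKM) divided the same libraries without overlap, and no other of the 9 genes did. The share of all genes that divide these libraries in this way is not given here. The division is therefore not read as particular to Rag1 and Arpp21. In RIPmOVA hosts both DKO-labelled libraries carried many such reads and both OT-II libraries few, so there this background and the genotype cannot be told apart. With the log2 sum of these reads as a covariate, the Rag1 difference between genotypes in RIPmOVA hosts was -1.29 in place of 0.22, and that between hosts in DKO-labelled cells -0.29 in place of 0.72 (limma adjusted p = 0.63 and 0.94).

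**Figure D3:**
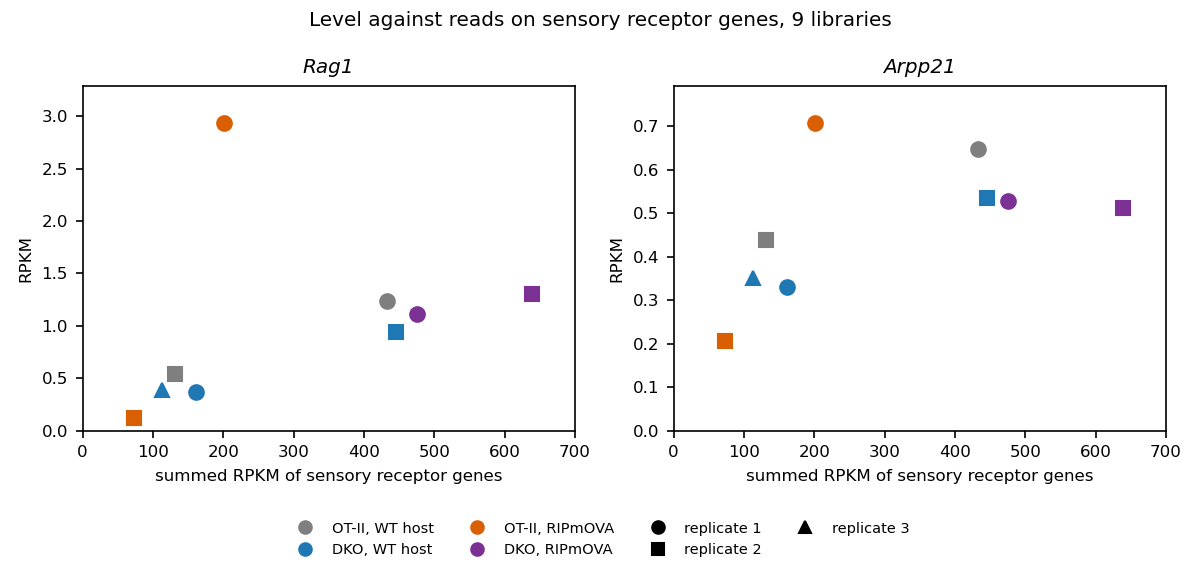
RPKM of Rag1 (left) and Arpp21 (right) against the summed RPKM of 1481 sensory receptor genes (x axes) in each of the 9 libraries, coloured by group, with symbols for replicates. The 4 libraries at 433 to 639 on the x axis had Rag1 at 0.945 to 1.30, and replicate 1 of OT-II cells from RIPmOVA hosts (2.94 at 201) lies off this order.

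Rag2 (Entrez 19374, chromosome 2, 101624718 to 101632529, GRCm38, plus strand), the partner subunit, lies 5.752 kb from Rag1 and is transcribed towards it. It was 0.0850 and 0.0410 RPKM in OT-II cells and 0.0540, 0.0470 and 0.0680 in DKO-labelled cells from WT hosts. The libraries from RIPmOVA hosts had 0.849 and 0.0470 RPKM for OT-II cells, and 0.0650 and 0.152 for DKO-labelled cells. Only replicate 1 of the OT-II cells from RIPmOVA hosts had more than 14 reads of Rag2, with 74. Exons of another gene, B230118H07Rik, overlap those of both, and the use of strand in counting was not given in the sources used here.

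Dntt (Entrez 21673, chromosome 19, 41029275 to 41059525, GRCm38, plus strand) stayed high where the recombinase was low. It was 25.2 and 29.0 RPKM in OT-II cells and 20.2, 29.7 and 30.1 in DKO-labelled cells from WT hosts. In RIPmOVA hosts it was 24.1 and 19.5 RPKM in OT-II cells and 17.0 and 23.7 in DKO-labelled cells. RPKM of Dntt was 8.21 to 164 times that of Rag1 in the same library. RIPmOVA hosts differed from WT hosts by -0.31 (SE 0.22, limma adjusted p = 0.58) for OT-II cells, and for DKO-labelled cells by -0.38 (SE 0.20, limma adjusted p = 0.35). The groups overlapped in DKO-labelled cells and not in OT-II cells, where the libraries from WT hosts were the higher ones.

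Of 11 genes that join the cut ends or help the recombinase, all passed the filter and 0 were called in any comparison by limma, with 0, 3, 1, 1 and 0 at an unadjusted p under 0.05 in the order of comparisons above. Their median log2 changes were 0.01, 0.14, 0.17, 0.00 and 0.13, beside -0.02, 0.03, 0.04, 0.01 and 0.03 over all genes tested. The most abundant, Hmgb1, which helps RAG bind its signals, was 45.9 to 61.5 RPKM, Hmgb2, its relative, 22.4 to 37.8, and Xrcc5, which encodes the end-binding protein Ku80, 17.5 to 28.5. These genes serve DNA repair and chromatin in most cells, so their level does not mark recombination.

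Ptcra (Entrez 19208, chromosome 17, 46755663 to 46763712, GRCm38, minus strand) encodes the invariant chain that pairs with a new beta chain before the alpha locus is rearranged. It had 0 to 11 reads in 8 libraries and 53 in the remaining one. It was 0.150 and 0.372 RPKM in OT-II cells and 0.160, 0.231 and 0.0310 in DKO-labelled cells from WT hosts. From RIPmOVA hosts, OT-II cells had 2.50 and 0 RPKM, and DKO-labelled cells 0 and 0.178. The 53 reads were again in replicate 1 of the OT-II cells from RIPmOVA hosts. The 2 libraries without a read allow up to 0.0966 and 0.114 RPKM, the level of 3 reads. Floors and read intervals cover counting error only.

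The coreceptor chains behaved differently from each other. Cd8a (Entrez 12525, chromosome 6, 71373427 to 71379173, GRCm38, plus strand) encodes the alpha chain, which CD8 needs to reach the surface. It was 2.99 and 2.83 RPKM in OT-II cells and 1.76, 2.35 and 2.63 in DKO-labelled cells from WT hosts. In RIPmOVA hosts it was 7.60 and 3.64 RPKM in OT-II cells and 2.62 and 3.39 in DKO-labelled cells. Both OT-II libraries from RIPmOVA hosts were above the 7 others, and replicate 1 was 2.09 times replicate 2 (95% counting interval 1.89 to 2.31). The log2 difference between hosts in OT-II cells was 0.77 (SE 0.29, limma adjusted p = 0.26), and 0.28 (SE 0.25, limma adjusted p = 0.77) without replicate 1. That between genotypes in RIPmOVA hosts was -0.73 (SE 0.29, limma adjusted p = 0.20), and -0.25 (SE 0.25, limma adjusted p = 0.67) without it. Over all alternatives the adjusted p was 0.086 to 0.77 for the former and 0.092 to 0.67 for the latter. Of the 6 CD8-lineage markers that passed the filter, Cd8a and Cd8b1 included, 2 were called higher between hosts in OT-II cells, beside 1.05% of all genes tested, and the same 2 lower between genotypes in RIPmOVA hosts, beside 0.562%. These were Itgae, the CD103 integrin chain, and Nkg7, a granule protein, higher by 2.53 and 2.87 (log2) in RIPmOVA hosts in OT-II cells and different by -2.43 and -3.29 in DKO-labelled against OT-II cells there (limma adjusted p = 0.0061 and 0.0017, and 0.0081 and 0.00088). Of the others tested, Crtam, a cytotoxic lineage receptor, had values of -0.43 and 0.98 in these comparisons, opposite in sign to Cd8a as Cd8b1 was, and Runx3, the CD8-lineage transcription factor, 0.27 and -0.64; none of these was called. Regulatory T cell markers (Foxp3, Il2ra and Ikzf4) had their highest sums in the same libraries. In OT-II cells from RIPmOVA hosts these were 21.0 and 24.98 RPKM, beside 8.80 to 12.3 in DKO-labelled cells from RIPmOVA hosts, and 5.27 to 7.14 and 1.89 to 2.83 in OT-II and DKO-labelled cells from WT hosts, with none at 0 in any library. Il2ra and Ikzf4 were called higher between hosts in OT-II and in DKO-labelled cells, and Foxp3 lower between genotypes in RIPmOVA hosts. Foxp3 was below Il2ra and Ikzf4 in every library, so the sums mainly follow those genes. It was 1.90 and 3.31 RPKM for OT-II cells from RIPmOVA hosts, and the DKO-labelled cells beside them had 0.092 and 0.077. The log2 change of Foxp3 between hosts within DKO-labelled cells was 0.08, where Il2ra changed by 2.04 and Ikzf4 by 1.47. The paper describes almost no Foxp3 transcript in its OT-II samples. The part of regulatory T cells in the Cd8a values was not tested.

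Cd8b1 (Entrez 12526, chromosome 6, 71322788 to 71337494, GRCm38, plus strand) encodes the beta chain, which reaches the surface only with the alpha chain, and lies 35.9 kb from Cd8a. It was 88.7 and 80.3 RPKM in OT-II cells and 96.4, 88.9 and 79.4 in DKO-labelled cells from WT hosts. OT-II cells from RIPmOVA hosts had 69.0 and 54.5 RPKM, and DKO-labelled cells from these hosts 65.9 and 88.4. The OT-II libraries from RIPmOVA hosts were below those from WT hosts, the opposite order to Cd8a. The log2 difference between hosts in OT-II cells was -0.46 (SE 0.16, limma adjusted p = 0.23), and between genotypes in RIPmOVA hosts, where the groups overlapped, 0.31 (SE 0.16, limma adjusted p = 0.29).

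In these cells sorted as CD8-, Cd8b1 RPKM was 9.07 to 54.6 times that of Cd8a per length. The ratio was 4.29 to 25.8 on merged exon length and 1.75 to 10.5 in reads, so Cd8b1 was above Cd8a in 9 of 9 libraries on each scale. The ratio was lowest in the OT-II libraries from RIPmOVA hosts, at 9.07 and 14.96, and 25.1 to 54.6 in the 7 others.

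**Figure D4:**
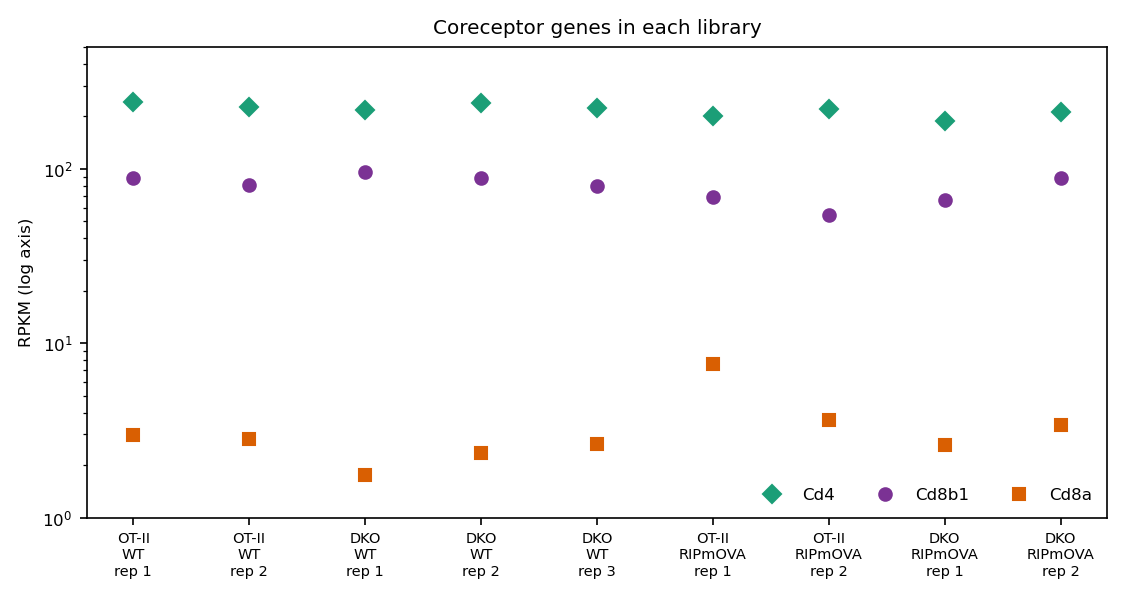
RPKM (log axis) of Cd4, Cd8b1 and Cd8a in each library (x axis). Cd4 lies at 189 to 241, Cd8b1 at 54.5 to 96.4 and Cd8a at 1.76 to 7.60, with Cd8a highest in replicate 1 of OT-II cells from RIPmOVA hosts.

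Ccr9 (Entrez 12769, chromosome 9, 123678439 to 123784330, GRCm38, plus strand) encodes the receptor for the chemokine CCL25 of thymic epithelium. It was 61.1 and 65.3 RPKM in OT-II cells and 42.1, 60.4 and 56.6 in DKO-labelled cells from WT hosts. In RIPmOVA hosts it was 55.1 and 55.8 RPKM in OT-II cells and 36.6 and 41.8 in DKO-labelled cells. The DKO-labelled libraries from RIPmOVA hosts were the lowest of the 9, and in each of the 4 chimeras that gave both genotypes the DKO-labelled library was the lower, at 0.689 and 0.924 times OT-II in WT hosts and 0.664 and 0.749 times in RIPmOVA hosts. Cd8a was also lower in DKO-labelled cells in 4 of 4 chimeras, and no other of the 9 genes moved one way in all 4. Of all genes tested, 12.9% were lower and 14.4% higher in DKO-labelled cells in all 4 chimeras. In RIPmOVA hosts the genotypes differed by -0.50 on the log2 scale (SE 0.16, limma adjusted p = 0.12), the smallest adjusted p of the 30 tests on these genes. In WT hosts they differed by -0.27 (SE 0.14, limma adjusted p = 0.71). Across hosts the difference in DKO-labelled cells was -0.42 (SE 0.14, limma adjusted p = 0.18), that in OT-II cells was -0.19 (SE 0.16, limma adjusted p = 0.65), and the interaction was -0.23 (SE 0.21, limma adjusted p = 0.71). Without replicate 1 of the DKO-labelled cells from WT hosts, which was the lowest of its group, the host difference in DKO-labelled cells was -0.57 (limma adjusted p = 0.034), past the limit on p and not that on the fold change. Over 21 alternatives its adjusted p was 0.034 to 0.64, and that of the genotype difference in RIPmOVA hosts was 0.055 to 0.50 over 22.

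Themis (Entrez 210757, chromosome 10, 28668360 to 28883818, GRCm38, plus strand) encodes a T cell adaptor that tunes receptor signalling during positive selection. It varied least of the 9 genes, from 16.1 to 23.7 RPKM. It was 23.7 and 22.0 RPKM in OT-II cells and 19.3, 19.9 and 18.6 in DKO-labelled cells from WT hosts. OT-II cells from RIPmOVA hosts had 19.97 and 20.6 RPKM, and the DKO-labelled cells beside them 16.1 and 21.0. The groups did not overlap between genotypes in WT hosts, with a log2 difference of -0.24 (SE 0.11, limma adjusted p = 0.66).

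Arpp21 (Entrez 74100, chromosome 9, 112065091 to 112235938, GRCm38, minus strand) encodes an RNA-binding protein that is also a cAMP-regulated phosphoprotein in neurons. It was 0.646 and 0.438 RPKM in OT-II cells and 0.331, 0.534 and 0.350 in DKO-labelled cells from WT hosts. From RIPmOVA hosts, OT-II cells had 0.707 and 0.206 RPKM, and DKO-labelled cells 0.528 and 0.512. As for Rag1, the highest and the lowest of the 9 libraries were those of OT-II cells from RIPmOVA hosts. Its 150 to 350 reads per library lay on the longest exon sum of the 9 genes. Exons of other annotated genes overlap those of Arpp21, Ccr9 and Themis, so part of their reads may not be theirs. In a fit without the filter, Rag2, Ptcra and Arpp21 had adjusted p values of 0.39 or more in every comparison.

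Replicate 1 of the OT-II cells from RIPmOVA hosts was the highest of 9 libraries for 5 of the 9 genes (Rag1, Rag2, Ptcra, Cd8a and Arpp21) and for 6 of 14 other double-positive stage genes, beside 11.5% of all genes tested. Against replicate 2 of its group it had 24.7 times the Rag1 RPKM (320 against 19 reads, 95% counting interval 15.6 to 41.6), 18.1 times the Rag2 RPKM (74 against 6 reads, 7.93 to 50.9) and 3.43 times the Arpp21 RPKM (2.82 to 4.18). For Ptcra (53 against 0 reads) the ratio was 25.9 with 3 reads taken for the 0, and its lower 95% counting limit was 20.4. Dntt (1.23 times) and Cd8b1 (1.27 times) differed little, and Ccr9 (0.987 times) and Themis (0.967 times) did not differ beyond counting error. Of the 14 others, Endou, a double-positive stage endonuclease gene, was 2.21 RPKM there and at most 0.645 elsewhere. It was picked out on its values.

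The sort selected on CD4 and on the OT-II receptor chains. The summed B-lineage and myeloid markers were higher in that library than in the 8 others, the myeloid sum through Lyz2. CD8-lineage markers, Cd8a and Cd8b1 included, summed to 108.7 against 76.3 to 104.6 RPKM, with Nkg7, Eomes and Cd8a highest there. Cd8a is part of this sum, at 7.60 RPKM there and 1.76 in the library with 104.6, so the sum is not independent of it. Cd8b1, Runx3, Itgae and Crtam were not highest there. The 11 maturation genes described below summed to less there, 1150 against 1168 to 1306, although Cd5 and Gata3 among them were highest there. Ccr7, the most abundant of them, was 323 RPKM there and 326 in replicate 2 of OT-II cells from RIPmOVA hosts, against 355 to 500 elsewhere. B-lineage markers summed to 14.9 RPKM over 8 genes, 4 of them highest there and none at 0, against 5.85 to 11.6 in the other libraries. Myeloid and dendritic markers summed to 20.6 over 8 genes, against 2.60 to 10.6. Of this sum Lyz2 made up 18.7 RPKM, and it was 0.879 to 8.44 in the other libraries. No other of the 8 was highest there, and Itgax and S100a8 were at 0. By group, the B-lineage sums were 8.89 to 10.04 in OT-II and 5.85 to 10.1 in DKO-labelled cells from WT hosts, and 8.35 to 14.9 in OT-II and 10.96 to 11.6 in DKO-labelled cells from RIPmOVA hosts. The myeloid sums in the same order were 3.27 to 9.94, 2.60 to 6.03, 10.6 to 20.6 and 5.81 to 7.01. Sums over markers of thymic epithelium (6.98), erythroid cells (1.73) and gamma-delta T and NK cells (1.65) lay within the range of the other libraries. The part of these cells in the values of Rag1, Rag2, Ptcra and Cd8a was not tested.

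**Figure D5:**
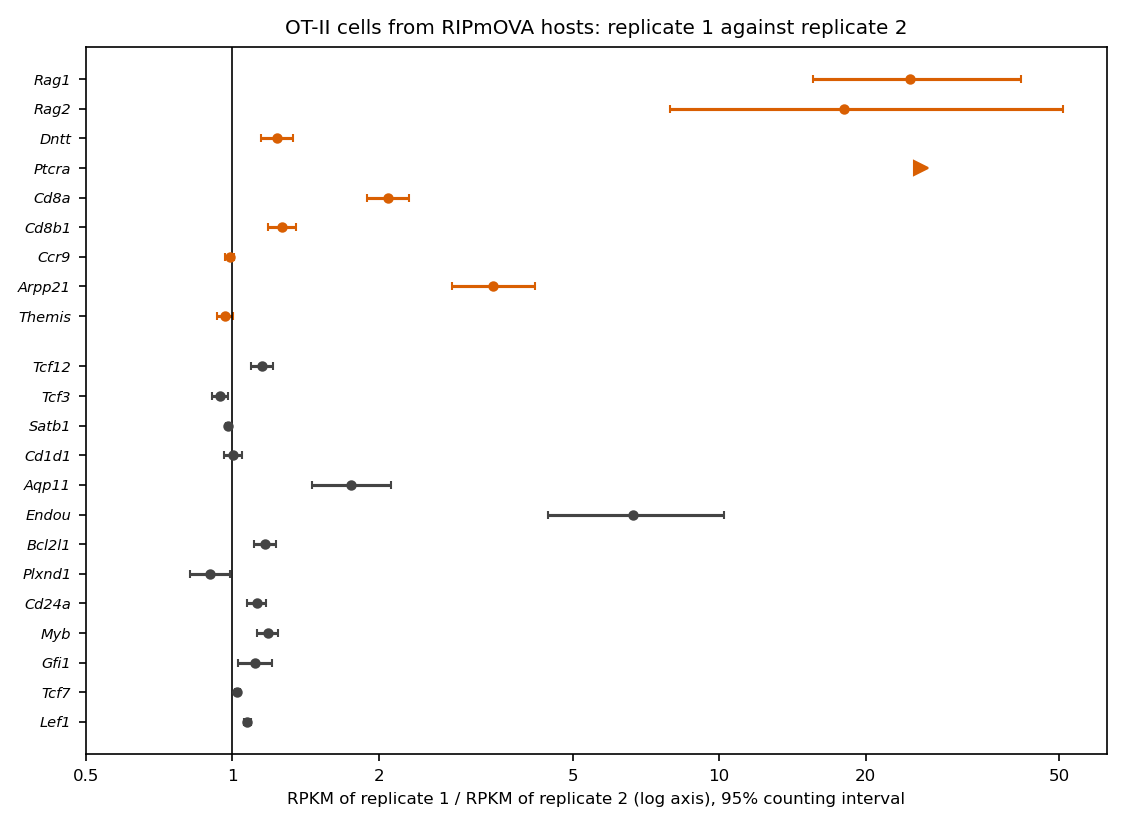
RPKM of replicate 1 over that of replicate 2 of OT-II cells from RIPmOVA hosts (x axis, log scale) with 95% counting intervals, for the 9 genes (orange) and 13 of the 14 other double-positive stage genes (grey). The triangle for Ptcra stands at 25.9, the ratio with 3 reads taken for 0, and has a lower 95% counting limit of 20.4 and no upper one. Rag1 lies at 24.7 and Rag2 at 18.1, while Ccr9 and Themis lie near 1.

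Among the 14 other double-positive stage genes, of which 13 passed the filter, 1 was called higher in RIPmOVA hosts in OT-II cells and 2 in DKO-labelled cells, and 0 were called between genotypes or in the interaction by limma. The shares called higher over all genes tested were 1.05% and 1.52%. At an unadjusted p under 0.05 there were 6 of 13 between hosts in OT-II cells (all genes, 14.3%), 7 in DKO-labelled cells (17.6%), 3 between genotypes in RIPmOVA hosts (21.4%), 2 between them in WT hosts (7.89%) and 3 for the interaction (9.32%). Their median log2 change was 0.36 between hosts in OT-II cells and 0.12 in DKO-labelled cells, and -0.18 and -0.13 between genotypes in RIPmOVA and WT hosts. In the same order 1, 5, 10 and 9 of the 13 were below 0. Satb1 changed by -0.39 between hosts in DKO-labelled cells and by -0.53 between genotypes in RIPmOVA hosts (limma adjusted p = 0.043 and 0.025), short of the limit on the fold change. Plxnd1 changed by -1.09 between hosts in DKO-labelled cells (limma adjusted p = 0.22). Cd24a, the heat-stable antigen that is lost as thymocytes mature, was 27.9 and 32.7 RPKM for OT-II and 19.7, 30.4 and 27.9 in DKO-labelled cells from WT hosts, and 75.7 and 67.5 for OT-II and 66.6 and 46.8 for DKO-labelled cells from RIPmOVA hosts. It rose in RIPmOVA hosts by 1.23 (log2, SE 0.22, limma adjusted p = 0.028) for OT-II and by 1.11 (SE 0.20, limma adjusted p = 0.019) for DKO-labelled cells. Myb, a transcription factor of immature thymocytes, rose in DKO-labelled cells by 2.05 (SE 0.29, limma adjusted p = 0.0061), from 9.15 to 12.4 RPKM in WT hosts to 53.6 and 35.6 in RIPmOVA hosts. The Cd24a call was lost in 8 of 21 alternatives in OT-II cells, with adjusted p values of 0.052 to 0.24, among them without replicate 1 or 2 of the OT-II cells from RIPmOVA hosts, replicate 1 of OT-II or replicate 3 of DKO-labelled cells from WT hosts. In DKO-labelled cells it was lost in 7, among them without replicate 1 or 3 of the WT hosts or replicate 1 of the RIPmOVA hosts, and the Myb call was lost in 3, among them without replicate 1 of the DKO-labelled cells from RIPmOVA hosts (limma adjusted p = 0.061).

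Of 8 genes of the earlier double-negative stage, 4 passed the filter. Between hosts, 2 were called higher in OT-II and 1 in DKO-labelled cells, beside 1.05% and 1.52% of all genes. At an unadjusted p under 0.05 there were 3 and 2 of 4 (all genes, 14.3% and 17.6%). Dtx1 went the other way from these calls, by -1.09 (SE 0.37, limma adjusted p = 0.22) in OT-II and -0.88 (SE 0.34, limma adjusted p = 0.23) in DKO-labelled cells. Notch1 changed by -0.02 and -0.12. Kit, the stem cell factor receptor, was 0.0450 to 0.196 RPKM in the 5 libraries from WT hosts and 8.32 and 8.13 for OT-II and 9.01 and 2.67 for DKO-labelled cells from RIPmOVA hosts. It rose in RIPmOVA hosts by 3.79 (log2, SE 0.43, limma adjusted p = 0.0035) for OT-II and by 3.12 (SE 0.39, limma adjusted p = 0.0036) for DKO-labelled cells. In OT-II cells the call was lost without the filter (limma adjusted p = 0.054) and with voom (0.10). Hes1, a Notch target, was 0 to 0.395 RPKM in WT hosts and 2.59 and 2.16 in OT-II cells from RIPmOVA hosts. It rose there by 2.43 (SE 0.46, limma adjusted p = 0.033), a call lost in 10 of 20 alternatives, among them without either OT-II library from RIPmOVA hosts, replicate 1 of OT-II or replicate 3 of DKO-labelled cells from WT hosts. None of the 4 was called between genotypes in either host, RIPmOVA or WT, or in the interaction by limma, with 2, 0 and 1 of 4 at an unadjusted p under 0.05 in that order, beside 21.4%, 7.89% and 9.32% of all genes. Kit and Hes1 were high in both OT-II libraries from RIPmOVA hosts, where Rag1, Rag2 and Ptcra were high in replicate 1 only.

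All 11 genes of maturation after the double-positive stage passed the filter. In DKO-labelled cells S1pr1, the egress receptor, was higher in RIPmOVA hosts, where it rose by 1.13 (log2, SE 0.11, limma adjusted p = 0.0012), and Il7r, the receptor chain for interleukin 7, fell by 1.64 (SE 0.20, limma adjusted p = 0.0034). S1pr1 was 95.3 and 110 RPKM in DKO-labelled and 42.0 and 43.2 in OT-II cells from RIPmOVA hosts, a difference of 1.26 (SE 0.12, limma adjusted p = 0.0020). With the sensory receptor covariate the S1pr1 difference between genotypes had a limma adjusted p of 0.063. With median-of-ratios rescaling the log2 change of S1pr1 between hosts was 0.96 (limma adjusted p = 0.0094), short of the limit on the fold change only. None of the 11 was called in OT-II cells between hosts, between genotypes in WT hosts or in the interaction by limma, with 6, 5 and 4 of 11 at an unadjusted p under 0.05, beside 14.3%, 7.89% and 9.32% of all genes. Between hosts in DKO-labelled cells there were 8 of 11 (all genes, 17.6%), and 1.52% of all genes were called higher and 0.156% lower. Between genotypes in RIPmOVA hosts there were 8 of 11 (21.4%), and 0.510% of all genes were called higher.

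For the 3 genes with the highest mean RPKM, the genes most alike were sought by the root mean square difference of centred log2 values over 9 libraries, among all genes kept. For Ccr9 these were Lpar6 (0.09) and Satb1 (0.11), for Dntt Mn1 (0.09) and 4632404H12Rik (0.12), and for Cd8b1 Tcea2 (0.08) and Rmnd1 (0.08). The SD of the centred values was 0.29 for Ccr9, 0.28 for Dntt and 0.26 for Cd8b1.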

How the data were processed

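RNA of 9 sorted thymocyte samples was measured by RNA-seq. The deposited values are RPKM per gene, which the authors made by aligning to mm10 with STAR and GENCODE vM17 transcripts, removing PCR duplicates with Picard and summing reads over the exons of each Entrez gene with GenomicRanges in R 3.5.2; the use of strand is not given in the sources used here. The table's length column was deposited beside them and was used only to recover reads and to rescale lengths.

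Reads were recovered from the steps of low RPKM values (100% of these were whole reads within the rounding of the deposited values). Genes with at least 1 RPKM in at least 2 libraries (11569 of 24594) were fitted as log2(RPKM + 0.5) in a group-means model over all 9 libraries with limma 3.58.1 in R 4.3.3 (two-sided, eBayes with an intensity trend, Benjamini-Hochberg adjustment over all genes kept). The fit was tested on simulated data. The groups, tests and lists were set with earlier results of these data known, as were the genes themselves. Named were the 9 genes, list genes called in a comparison or, where none was called, the 3 most abundant, and 2 alike genes for each of the 3 most abundant of the 9. Endou, Cd1d1, Tcf12, Gfi1, Satb1, Plxnd1, Dtx1, Notch1, Cd5, Gata3 and Ccr7 were named after their values were seen. So were Lyz2, Itgae, Nkg7, Crtam, Runx3, Eomes, the B-lineage markers and the regulatory T cell markers. Trbc1, Trbc2 and Tcrg-C1, listed as markers, had no matching entry. A listed gene is not reported here. Libraries are from separate chimeras within each group. Libraries with the same number within a host come from the same chimera by the labels, whose mouse field gives both genotypes the same animal, so the numbers pair the genotypes; the deviations of same-numbered libraries from their group means had correlations of -0.08 in RIPmOVA and -0.15 in WT hosts. Coordinates are those of GENCODE vM21 for GRCm38, the assembly that mm10 names. Alternatives were other pseudocounts, filters, scalings and call rules, only the groups compared, chimera blocks, a background covariate, leaving out each library, and voom and a crossed block, which were added after the data were seen. Python 3.11.15 with pandas 2.3.3, numpy 2.4.6 and matplotlib 3.10.9 was used for tables and plots.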

Additional observations from a re-analysis of the deposited data

How the results depend on the processing

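None of the 6 genes tested was called in the 109 recomputed counts. Of 644 recomputed log2 fold changes, 613 kept their direction and 31 reversed, the reversals falling on 14 of the 30 results; none of the 14 was near a call, and causes were not tested. Limits come from 2 or 3 libraries per group and, for Rag1, Rag2 and Ptcra, from few reads.

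For Rag1 the host difference in OT-II cells was -0.19 with a pseudocount of 0.1, -0.77 with voom and -1.12 to 1.35 leaving out single libraries. In DKO-labelled cells it was -0.29 with the sensory receptor covariate. Its genotype difference in RIPmOVA hosts was -0.54 with quantile normalization, -1.29 with the covariate and -1.01 to 1.46 leaving out single libraries, and its interaction -0.095, -1.07 and -0.63 to 1.84 in the same order. Leaving out single libraries, the host difference in DKO-labelled cells was -0.41 to 0.0079 for Cd8b1 and -0.25 to 0.12 for Themis. The genotype difference in RIPmOVA hosts was then -0.34 to 0.13 for Dntt and -0.32 to 0.049 for Themis, and in WT hosts -0.14 to 0.14 for Dntt and -0.012 to 0.13 for Cd8b1. The interaction was -0.30 to 0.17 for Dntt, -0.90 to 0.074 for Cd8a and -0.084 to 0.29 for Themis. It was also -0.029 for Cd8b1 and -0.018 for Themis with the covariate, and -0.13 for Themis with median-of-ratios rescaling.

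Over all genes, 142 were called between hosts in OT-II cells, and 55 without a filter, 31 with only the groups compared, 219 on adjusted p alone and 50 (without OT-II replicate 1 of RIPmOVA hosts) to 296 (without OT-II replicate 2 of WT hosts). In DKO-labelled cells 194 were called, and 117 without a filter, 387 on adjusted p alone, 89 with the covariate and 98 (without DKO-labelled replicate 1 of RIPmOVA hosts) to 259 (without DKO-labelled replicate 2 of WT hosts). Between genotypes in RIPmOVA hosts 124 were called, and 81 at RPKM 5, 214 with median-of-ratios rescaling, 201 with quantile normalization, 220 with only the groups compared, 256 on adjusted p alone, 20 with the covariate and 21 (without OT-II replicate 1 of RIPmOVA hosts) to 217 (without OT-II replicate 2 of WT hosts). In WT hosts 7 were called, and 4 without a filter, 18 with median-of-ratios rescaling, 2 with only the groups compared and 5 to 100 leaving out single libraries (100 without OT-II replicate 2 of WT hosts, and 11 and 12 without DKO-labelled replicate 1 or 2 of RIPmOVA hosts). The interaction called 2 genes, 8 without a filter, 7 with median-of-ratios rescaling, 0 with a pseudocount of 0.1, at RPKM 5, with the covariate and with voom, and 0 to 159 leaving out single libraries (159 without OT-II replicate 2 of WT hosts and 6 without DKO-labelled replicate 2 of RIPmOVA hosts). Median-of-ratios rescaling moved the median of all genes to -0.13 between hosts in DKO-labelled cells, -0.17 between genotypes in RIPmOVA hosts and -0.19 in the interaction.

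With the chimera as a random replicate block, 142, 193, 165, 8 and 2 genes were called in the order above. As a fixed replicate block, pairing the genotypes, it called 97 between genotypes in RIPmOVA hosts, 2 in WT hosts and 0 in the interaction, and the Dntt interaction was 0.029. The block changed no call on the 6 genes tested. With the numbers crossed in WT hosts, 7 genes were called there and 2 in the interaction.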
